A study of Homo sapiens with 18 samples.

Results

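The 9 genes described here carry out peptide presentation on MHC class I or encode PD-L1. HLA-B and HLA-C are class I heavy chains, B2M is their shared light chain, TAP1, TAP2 and TAPBP bring peptides to them, PSMB8 and PSMB9 are catalytic subunits of the immunoproteasome, and CD274 encodes PD-L1. They were taken by their symbols from the expression tables of 3 lung cancer cell lines, and all 9 were found among the 58302 listed genes. Each line had been transduced either with a stable shRNA against the kinase SYK (shSYK) or with a negative control (nc), and RNA was sequenced from 3 libraries per condition and line, 18 in all. EBC-1 has MET amplification, and PC-9 and HCC827 carry an exon 19 deletion of EGFR. No other treatment is given for any group. The knockdown rests on 1 lentiviral shRNA, so what belongs to SYK and what belongs to that shRNA cannot be told apart. Nothing states that the 3 libraries of a group came from separate cultures, so the p-values measure only the spread between these libraries, which may be technical.

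Class I molecules show peptides from inside the cell to CD8 T cells. Proteasomes cut proteins into peptides, the TAP1 and TAP2 transporter carries them into the endoplasmic reticulum, tapasin (TAPBP) holds the empty class I molecule beside that transporter, and the loaded molecule travels to the surface with B2M. Interferon-gamma raises most of these genes through IRF1 and NLRC5, and exchanges the constitutive proteasome subunits PSMB5, PSMB6 and PSMB7 for PSMB8, PSMB9 and PSMB10. PD-L1, which binds PD-1 on T cells and restrains them, is raised by the same cytokine. Lung cancers differ widely in how much of this machinery they keep.

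Of the 9 genes, 7 lie in the MHC on chromosome 6, with B2M on chromosome 15 and CD274 on chromosome 9. The DNA ahead of their start sites is shown for the genes whose changes are compared most closely in the sections that follow, from RefSeq (GRCh38.p14), where all 9 were matched. Each line gives the 250 bases before the annotated start, 5′ to 3′ on the strand of the gene. Capitals mark matches on either strand to an interferon-stimulated response element (ISRE, GAAA and GAAA with any 2 bases between them), a gamma-activated site (GAS, TTCNNNGAA) or the NF-kB consensus.

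HLA-B (chr6:31357180-31357429, minus strand): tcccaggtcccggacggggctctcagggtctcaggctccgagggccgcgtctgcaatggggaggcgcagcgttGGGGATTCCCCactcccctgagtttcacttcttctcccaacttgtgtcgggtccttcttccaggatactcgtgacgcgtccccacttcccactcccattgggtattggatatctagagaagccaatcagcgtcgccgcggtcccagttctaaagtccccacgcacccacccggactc

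HLA-C (chr6:31272093-31272342, minus strand): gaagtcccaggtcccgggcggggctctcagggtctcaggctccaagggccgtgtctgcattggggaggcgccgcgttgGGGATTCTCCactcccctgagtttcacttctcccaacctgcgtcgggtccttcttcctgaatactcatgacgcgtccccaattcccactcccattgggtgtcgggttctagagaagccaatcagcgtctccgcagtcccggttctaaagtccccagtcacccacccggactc

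B2M (chr15:44711267-44711516, plus strand): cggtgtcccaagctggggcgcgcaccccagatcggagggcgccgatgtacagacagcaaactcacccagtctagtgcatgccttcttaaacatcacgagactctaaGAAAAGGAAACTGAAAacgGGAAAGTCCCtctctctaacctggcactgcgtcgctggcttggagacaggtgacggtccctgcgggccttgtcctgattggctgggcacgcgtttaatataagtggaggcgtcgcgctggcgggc

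TAP1 (chr6:32853705-32853954, minus strand): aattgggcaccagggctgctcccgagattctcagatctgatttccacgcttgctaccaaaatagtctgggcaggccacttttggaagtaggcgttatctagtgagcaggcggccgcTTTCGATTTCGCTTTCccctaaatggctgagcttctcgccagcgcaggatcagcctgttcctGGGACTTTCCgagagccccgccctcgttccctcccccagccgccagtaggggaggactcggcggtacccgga

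PSMB9 (chr6:32853942-32854191, plus strand): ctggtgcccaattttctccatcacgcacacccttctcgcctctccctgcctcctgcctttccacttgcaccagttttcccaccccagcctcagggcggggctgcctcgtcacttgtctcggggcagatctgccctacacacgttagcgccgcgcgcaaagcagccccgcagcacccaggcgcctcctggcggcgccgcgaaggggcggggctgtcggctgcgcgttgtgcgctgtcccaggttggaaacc

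CD274 (chr9:5450292-5450541, plus strand): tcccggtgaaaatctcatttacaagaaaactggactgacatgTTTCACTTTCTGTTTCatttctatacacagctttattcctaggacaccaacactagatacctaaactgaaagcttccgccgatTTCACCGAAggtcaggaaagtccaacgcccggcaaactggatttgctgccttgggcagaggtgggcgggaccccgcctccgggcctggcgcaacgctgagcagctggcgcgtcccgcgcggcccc

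The HLA-B and HLA-C stretches were nearly the same, with 226 identical positions among 254 aligned (89.0%), and each held an NF-kB match near the same place with no ISRE or GAS match in these letters. A pair of overlapping ISRE matches stood in each of B2M, TAP1 and CD274. Only CD274 among the 6 stretches held a GAS match, and B2M and TAP1 held an NF-kB match as well. Among stretches not shown, those of TAP2 and TAPBP held an ISRE match. Those before another RefSeq start of TAP1 and of PSMB8 held a GAS match. TAP1 and PSMB9 are read in opposite directions from start sites whose windows overlap, and the PSMB9 stretch held none of these matches. Over the windows of all 35116 RefSeq starts, which also take in the first 50 bases after each start, 3.57% held an ISRE match, 7.66% a GAS match and 5.91% an NF-kB match. Overlapping matches were counted once per window, and a match is a string of letters, which says nothing of binding.

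The tables give FPKM, fragments per kilobase of gene model scaled to the depth of the library, as the authors deposited them. Whole reads per gene could be recovered from the FPKM and the gene lengths, and the libraries held between 7920099 and 15729103 reads on genes. The targeted gene separated the conditions without overlap in each line: mean SYK in the knockdown was 52.3% of the control in EBC-1, and PC-9 and HCC827 kept 32.1% and 32.9%. Epithelial markers summed to between 1137 and 4683 FPKM in every library, whereas leukocyte markers summed to at most 5.92 FPKM, fibroblast markers to at most 8.37 and endothelial markers to at most 17.0. PTPRC, the defining leukocyte marker, had at most 1 read in any library of EBC-1 and HCC827 and at most 14 in PC-9. Class I genes are used by nearly every nucleated cell, and levels in bulk RNA cannot separate fewer expressing cells from less RNA per cell.

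For HLA-B, HLA-C and B2M, the control level of EBC-1 differed from that of PC-9 and HCC827 by more than any line moved with the knockdown. Each cell line has its own table, so levels set across lines assume that the FPKM are on 1 scale, and rescaling to TPM (an equal sum in every library) is given where it matters. EBC-1 stood far above both other lines for HLA-B, HLA-C and B2M. The mean nc level of HLA-B in EBC-1 was 14.4 times that in HCC827 and 16.6 times that in PC-9, HLA-C was 9.84 times PC-9 and 16.5 times HCC827, and B2M was 4.07 times PC-9 and 4.64 times HCC827. The peptide supply genes differed less. TAP1 in EBC-1 nc cells was 1.72 times HCC827 and 1.96 times PC-9, and TAPBP was 1.57 times PC-9 and 1.99 times HCC827. For TAP2 the EBC-1 and HCC827 control libraries overlapped in FPKM and were apart in TPM (16.6 to 20.3 in EBC-1 and 12.8 to 14.4 in HCC827). The order was the other way round for PD-L1, with CD274 in HCC827 nc cells at 3.29 times EBC-1 and 9.60 times PC-9. PSMB8 was highest in HCC827, and its order over the lower groups changed when the libraries were rescaled to TPM.

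**Figure D1:**
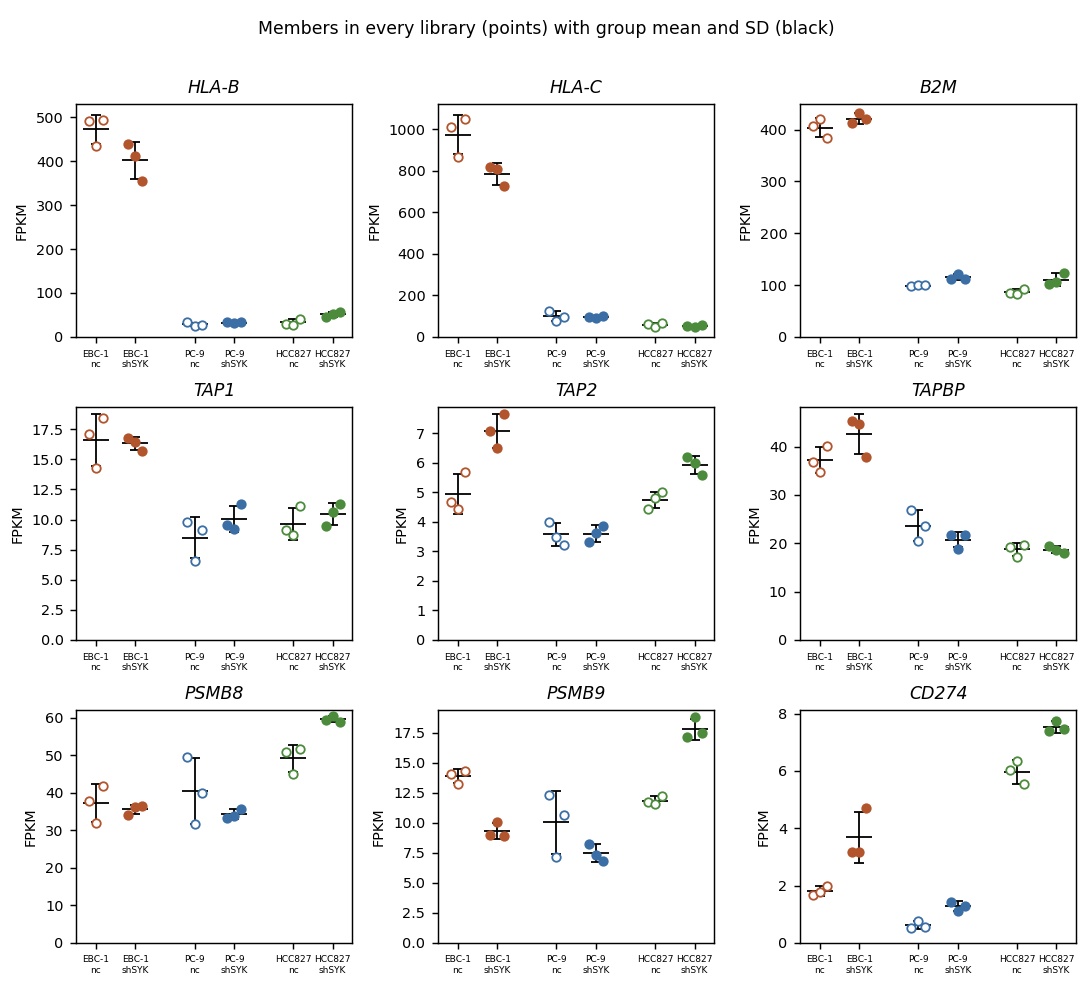
FPKM (vertical axes, from 0) of the 9 genes in the 18 libraries, with nc libraries as open points and shSYK libraries as filled points, and the mean and SD of each group of 3 in black. HLA-B, HLA-C and B2M were highest in EBC-1, CD274 was highest in HCC827, and the shSYK libraries of CD274 lay above the nc libraries in each cell line.

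Each comparison of shSYK with nc was made within a cell line with limma on log2(FPKM + 1), adjusting p-values by Benjamini-Hochberg over all genes whose mean FPKM in that line reached 1. Fold changes on this scale understate the change of low genes. A gene was called at an adjusted p under 0.05. In HCC827 HLA-B, B2M, TAP2, PSMB8, PSMB9 and CD274 rose. These 6 of the 9 genes were called higher and 0 lower, against 38.0% of the 11999 genes tested (17.2% higher and 20.7% lower), and the median log2 difference of the 9 was 0.27 beside -0.01 over all genes. Every one of those 6 also had all its shSYK libraries above all its nc libraries, an order found in 24.7% of all genes tested, while 27.6% had the opposite order and 52.3% either one. In EBC-1, 2 genes were called higher and 2 lower, against 44.7% of 12430 genes (23.1% higher and 21.6% lower). The same 4 genes had groups that did not overlap there, as did 56.9% of all genes, 29.7% with the knockdown above and 27.2% with it below. In PC-9, 0 of the 8 genes tested were called by limma, against 2.09% of 12089 genes (0.678% higher and 1.41% lower), and CD274 was below the filter. That share rests on single libraries, since the 253 genes called in PC-9 became 621 without nc replicate 1, 503 without nc replicate 2, 24 without nc replicate 3, and 7, 16 and 20 without shSYK replicates 1, 2 and 3. The nc replicates 1 and 2 of PC-9 were also the least alike of any pair within a group (chi-square per degree of freedom 38.7). B2M and CD274 had groups that did not overlap in PC-9, as did 23.7% of all genes tested. At an unadjusted p under 0.05, 1881 genes passed in PC-9, none of them among the 8, and limma-voom on recovered reads called 0 of the 8 as well.

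**Figure D2:**
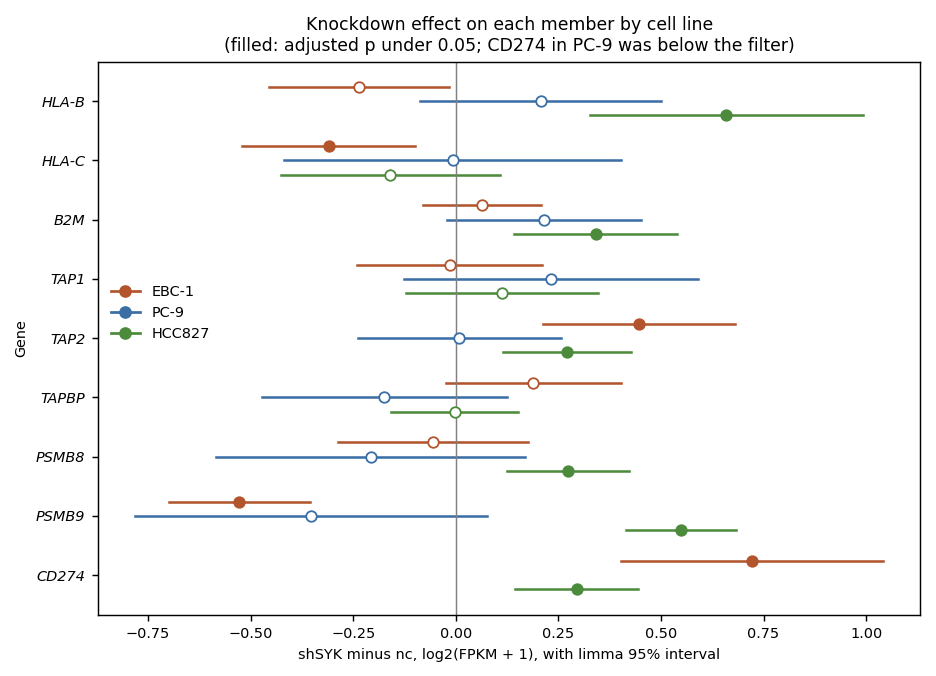
Difference of shSYK and nc on the log2(FPKM + 1) scale (horizontal axis) for each gene (vertical axis) and cell line, with 95% intervals from limma. Filled points passed an adjusted p of 0.05: 6 rose in HCC827, CD274 and TAP2 rose and PSMB9 and HLA-C fell in EBC-1, and PC-9 shows open points only.

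The heavy chain HLA-B in HCC827 read 30.2, 27.7 and 40.5 FPKM in the nc libraries and 45.9, 52.4 and 57.6 FPKM in the shSYK libraries. All 3 knockdown libraries stood above all 3 controls, with nc replicate 3 nearest to them. The mean was 1.58 times the control mean, a log2 difference of 0.66 ± 0.14 (SE) with a limma adjusted p of 0.0100. HLA-C in the same cells read 60.7, 49.7 and 66.3 FPKM in nc and 53.0, 47.2 and 57.1 FPKM in shSYK. The 2 groups overlapped, and the log2 difference of -0.16 (95% interval -0.43 to 0.11) did not pass (adjusted p 0.305). Neighbouring genes with 89.0% identical upstream stretches thus gave one called rise and one value below 0 in HCC827, and the difference between the genes was not tested.

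In EBC-1 both heavy chains had lower means in shSYK cells. HLA-C, the most abundant of the 9, read 1009, 867 and 1048 FPKM in nc and 820.3, 807 and 726 FPKM in shSYK. Every knockdown library lay below every control, as in 27.2% of all genes tested, but nc replicate 2 came close. The log2 difference was -0.31 ± 0.09 (SE, adjusted p 0.0265), with adjusted p up to 0.211 under 8 alternatives that lose the call, and it turned to 0.18 (adjusted p 0.0452) with quantile normalization, so the direction of HLA-C depends on the scaling. HLA-B read 491, 435 and 494 FPKM in nc and 439, 412 and 356 FPKM in shSYK. These groups overlapped by 1 library, and the log2 difference of -0.24 (95% interval -0.46 to -0.02) had an adjusted p of 0.0759, between 0.0337 and 0.978 over the alternatives, with a value of 0.00 under quantile normalization. In PC-9, HLA-B averaged 28.4 ± 4.23 FPKM (SD, n = 3) in nc and 32.7 ± 1.22 in shSYK, and HLA-C 99.0 ± 24.2 and 96.7 ± 3.62, with overlapping groups for both.

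The effect on HLA-B differed between EBC-1 and HCC827. The difference of the 2 knockdown effects, from a limma fit of all 18 libraries, was -0.90 ± 0.19 on the log2 scale (SE, adjusted p 0.00302), a contrast in which 21.8% of 12672 genes were called, 10.8% higher and 11.0% lower. The call held in all 26 alternatives for HLA-B, with adjusted p between 0.000489 and 0.0100. Reads of class I genes are hard to place because their coding sequences are alike, and how reads mapping to several of them were counted is not stated. The HLA-B gene model in the tables runs from 31269491 to 31357188 on chromosome 6 and takes in 2640 bases of HLA-C on the same strand, while GENCODE v44 places HLA-B at 31353872 to 31367067. Reads of HLA-B and HLA-C may therefore not be separate, and differences between them are uncertain to that extent.

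B2M, without which no class I heavy chain is stable at the surface, was higher in HCC827. It read 84.7, 83.1 and 92.9 FPKM in nc and 101, 106 and 124 FPKM in shSYK. The groups did not overlap, and the log2 difference was 0.34 ± 0.09 (SE, adjusted p 0.0176). That call was lost with no filter (adjusted p 0.0570), without nc replicate 1 (0.0594) and without nc replicate 2 (0.0512), in a range of 0.000595 to 0.0594 over the alternatives. PC-9 showed the same order, with 98.0, 99.7 and 99.5 FPKM in nc and 112, 122 and 112 FPKM in shSYK. Every knockdown library was above every control there, an order held by 11.4% of all genes tested, but the log2 difference of 0.22 (95% interval -0.02 to 0.45) had an adjusted p of 0.365. In EBC-1 the libraries overlapped, at 403 ± 18.5 FPKM (SD, n = 3) in nc and 421 ± 9.79 in shSYK (log2 difference 0.06, adjusted p 0.434). The knockdown effects on B2M in the cell lines did not differ past the threshold in any pair (adjusted p 0.350 for EBC-1 and PC-9, 0.0807 for EBC-1 and HCC827 and 0.587 for PC-9 and HCC827), although limma-voom on recovered reads gave 0.0427 for EBC-1 and HCC827.

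TAP2, a transporter subunit, rose in EBC-1 from 4.69, 4.43 and 5.71 FPKM in nc to 7.06, 6.50 and 7.66 FPKM in shSYK. The 2 groups were apart in EBC-1, and the log2 difference of 0.45 ± 0.10 (SE, adjusted p 0.0100) passed in all 15 alternatives. In HCC827 it rose from 4.44, 4.80 and 4.997 FPKM to 6.19, 6.004 and 5.60 FPKM, again with no overlap. The log2 difference there was 0.27 ± 0.07 (SE, adjusted p 0.0167), and the call was lost without nc replicate 1 (0.0546), shSYK replicate 1 (0.0512) or shSYK replicate 2 (0.0554). PC-9 gave 4.01, 3.50 and 3.23 FPKM in nc and 3.32, 3.62 and 3.87 in shSYK, which overlapped throughout (log2 difference 0.01, 95% interval -0.24 to 0.26). The effect on TAP2 was larger in EBC-1 than in PC-9 by 0.44 ± 0.13 (SE, adjusted p 0.0256, with 19.8% of genes called, 9.9% in each direction). Adjusted p for that difference ran from 0.00301 to 0.0689 over the alternatives, and the call was lost without EBC-1 nc replicate 1 (0.0643), EBC-1 nc replicate 2 (0.0551), EBC-1 shSYK replicate 3 (0.0689) or PC-9 shSYK replicate 1 (0.0668).

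TAP1, the partner of TAP2 in the transporter, was called in no line. EBC-1 gave 16.6 ± 2.14 FPKM (SD, n = 3) in nc and 16.3 ± 0.545 in shSYK, PC-9 8.47 ± 1.70 and 10.0 ± 1.08, and HCC827 9.64 ± 1.31 and 10.5 ± 0.916. Every pair of groups overlapped, and the 95% interval of the log2 difference reached from -0.24 to 0.21 in EBC-1, from -0.13 to 0.59 in PC-9 and from -0.12 to 0.35 in HCC827. A rise of the size seen for TAP2 in EBC-1 thus lies outside the interval of TAP1 in that line and inside the interval in PC-9.

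TAPBP, which holds class I molecules ready for loading, was not called either. It averaged 37.2 ± 2.75 FPKM (SD, n = 3) in EBC-1 nc cells and 42.6 ± 4.07 in shSYK cells, where replicates 1 and 2 at 45.3 and 44.6 FPKM exceeded all controls and replicate 3 at 37.9 FPKM did not. The log2 difference of 0.19 had an adjusted p of 0.129, which passed without shSYK replicate 3 (0.0392), with TPM rescaling (0.0133) and with quantile normalization (0.0259), in a range up to 0.325. PC-9 means were 23.6 ± 3.23 and 20.7 ± 1.63 FPKM, and HCC827 means were 18.7 ± 1.35 and 18.7 ± 0.729, with overlap in both. The effects on TAPBP in EBC-1 and PC-9 differed by 0.36 (adjusted p 0.0827), which passed with TPM rescaling (0.00171) and quantile normalization (0.00377).

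Of the 2 immunoproteasome genes, PSMB9 was called in opposite directions in EBC-1 and HCC827. PSMB9 (also called LMP2) replaces PSMB6 in the proteasome. In HCC827 it read 11.8, 11.6 and 12.3 FPKM in nc and 17.1, 18.8 and 17.5 FPKM in shSYK. The gap between the groups was wide compared with the spread within them, and the log2 difference was 0.55 ± 0.06 (SE, adjusted p 0.000602). In EBC-1 it read 14.1, 13.2 and 14.3 FPKM in nc and 8.95, 10.1 and 8.93 FPKM in shSYK. Here every knockdown library was below every control, with a log2 difference of -0.53 ± 0.07 (SE, adjusted p 0.00155). Both calls held in all 15 alternatives run for each of them. PC-9 controls were scattered at 12.4, 7.14 and 10.6 FPKM, and its knockdown libraries read 8.27, 7.32 and 6.86 FPKM. The PC-9 groups overlapped through nc replicate 2, and the log2 difference of -0.35 had an adjusted p of 0.412, or 0.0457 without that library, in a range of 0.0457 to 0.756.

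Tested directly, the effect on PSMB9 differed between EBC-1 and HCC827 by -1.08 ± 0.18 (SE, adjusted p 0.000532) and between PC-9 and HCC827 by -0.90 ± 0.18 (SE, adjusted p 0.00526), a contrast with 7.5% of genes called, 3.84% higher and 3.66% lower. These 2 calls held in all 26 alternatives run for each. EBC-1 and PC-9 did not differ past the threshold (-0.17, 95% interval -0.56 to 0.21, adjusted p 0.540). The PSMB9 gene model overlaps all 8770 bases of TAP1 and 568 bases of PSMB8, both on the opposite strand, and whether the counting used strand is not stated. Reads of these genes may therefore not be separate. TAP1 was called in no line, and PSMB8 was called higher in HCC827.

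PSMB8 (LMP7), which replaces PSMB5, rose in HCC827 from 51.0, 45.1 and 51.6 FPKM to 59.4, 60.6 and 58.9 FPKM. The knockdown libraries were tightly grouped above the controls, and the log2 difference was 0.27 ± 0.06 (SE, adjusted p 0.0132), which was lost in the fit of all 18 libraries (0.113). It was 37.2 ± 4.96 FPKM (SD, n = 3) in EBC-1 nc cells and 35.6 ± 1.26 in shSYK cells, and 40.4 ± 8.83 and 34.3 ± 1.23 in PC-9, with overlapping groups in both. Its knockdown effects in PC-9 and HCC827 differed by -0.48 (95% interval -0.85 to -0.11), which did not pass after adjustment (adjusted p 0.112), although it passed with TPM rescaling (0.00450), with quantile normalization (0.00266) and without PC-9 nc replicate 2 (0.00978).

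A ratio of an inducible to the matching constitutive subunit within a library does not depend on how libraries were scaled. PSMB9 over PSMB6 fell from 0.138 ± 0.00610 to 0.0983 ± 0.00620 in EBC-1 and from 0.0827 ± 0.00792 to 0.0575 ± 0.00884 in PC-9, and rose from 0.0585 ± 0.000754 to 0.0918 ± 0.00501 in HCC827 (SD, n = 3). The groups were apart in all 3 lines. PSMB8 over PSMB5 went from 0.621 ± 0.0268 to 0.505 ± 0.0283 in PC-9 and from 0.319 ± 0.0103 to 0.412 ± 0.00785 in HCC827, again apart, and from 1.01 ± 0.0928 to 0.885 ± 0.0414 in EBC-1 with overlap. PSMB10, which replaces PSMB7, went from 0.212 ± 0.0109 to 0.156 ± 0.0210 relative to it in EBC-1 and from 0.0476 ± 0.00266 to 0.0286 ± 0.00228 in PC-9, both apart, and gave 0.0778 ± 0.00902 and 0.0791 ± 0.00194 in HCC827, which overlapped. All 3 ratios in PC-9, where no single subunit was called, were lower in every knockdown library than in every control. Groups that do not overlap are common for single genes, with a share of 23.7% of all genes tested for PC-9, while HCC827 gave 52.3% and EBC-1 56.9%. The matching share for ratios of other genes was not computed. With 3 libraries against 3 an exact two-sided permutation test cannot go below 0.1, the value in the 7 comparisons without overlap (0.129 after adjustment over the 9), with 0.2 for PSMB8 in EBC-1 and 0.8 for PSMB10 in HCC827, so none of these differences passes a threshold of 0.05.

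**Figure D3:**
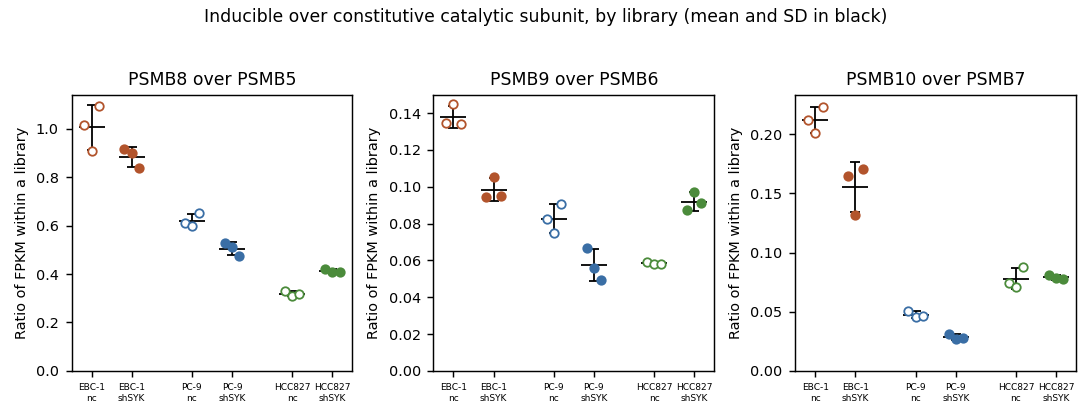
Ratio of FPKM of the inducible to the constitutive catalytic subunit (vertical axes, from 0) in each library, nc open and shSYK filled, with mean and SD of 3 libraries in black. PSMB9 over PSMB6 was lower with the knockdown in EBC-1 and PC-9 and higher in HCC827.

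CD274 was the one gene of the 9 with all shSYK libraries above all nc libraries in every cell line. Taken line by line, this order was common: HCC827 had it for 24.7% of all genes tested, EBC-1 for 29.7% and PC-9 for 11.4%. The share of genes holding it in all 3 lines together was not computed, so how unusual CD274 is cannot be judged. EBC-1 read 1.66, 1.77 and 2.002 FPKM in nc and 3.18, 3.16 and 4.71 FPKM in shSYK. The lowest knockdown library exceeded the highest control by over 1 FPKM, and shSYK replicate 3 stood above its group. The mean was 2.03 times the control mean, and the log2 difference was 0.72 ± 0.14 (SE, adjusted p 0.00508), a call that held in all 14 alternatives that kept the gene.

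HCC827 started from the highest PD-L1 level, with 6.03, 6.34 and 5.54 FPKM in nc and 7.38, 7.76 and 7.47 FPKM in shSYK. The groups were apart and the rise was smaller, 1.26 times, with a log2 difference of 0.29 ± 0.06 (SE, adjusted p 0.0103), lost in the fit of all 18 libraries (0.0613). PC-9 had the lowest level, with 0.530, 0.775 and 0.560 FPKM in nc and 1.44, 1.10 and 1.30 FPKM in shSYK, resting on 18 to 37 reads in the controls and 54 to 74 in the knockdown libraries. The mean was 2.05 times the control mean, and the groups were apart. The gene lay below the filter there. With no filter its log2 difference was 0.49 ± 0.12 (SE) with an adjusted p of 0.237, and in the fit of all 18 libraries the adjusted p was 0.00948. These fits differ both in the genes adjusted over and in the libraries that give the spread.

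The size of the CD274 effect did not differ past the threshold between any 2 lines (adjusted p 0.318 for EBC-1 and PC-9, 0.0623 for EBC-1 and HCC827, and 0.547 for PC-9 and HCC827). The difference of EBC-1 and HCC827 was 0.43 (95% interval 0.10 to 0.76), with adjusted p between 0.0387 and 0.141 over the alternatives. Read side by side, PD-L1 and PSMB9 rose together in HCC827 and parted in EBC-1, where PD-L1 rose and PSMB9 fell.

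For a view of what else followed these levels, the genes with the highest Pearson correlation on the log2(FPKM + 1) scale were taken over the 18 libraries among 12672 genes. These are descriptions without a test, in which libraries of a group share their cell line and condition. CD274 levels ran most closely with TEX10 (r = 0.984), COA7 (0.976) and AK4 (0.975), and with the mean of each cell line subtracted, with COA7 (0.945), NCEH1 (0.938) and CD59 (0.937), the last a membrane inhibitor of complement. HLA-B levels ran with C14orf159 (0.994), SDC2 (0.992) and GALNT9 (0.991), and within lines with C8orf58 (0.919), H2AFJ (0.867) and NFKBIE (0.867), which encodes an inhibitor of NF-kB. TAP1 levels ran with PPM1G (0.963), FIS1 (0.957) and PDAP1 (0.945), and within lines with TFE3 (0.884), BANF1 (0.854) and NUDC (0.848). None of these top genes was another of the 9.

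The genes around the 9 in the pathway were taken as lists. Among peptide trimming and loading genes, 1 rose and 3 fell of 7 tested in EBC-1, against 44.7% of all genes called. In PC-9, 0 of 7 were called by limma, against 2.09%, and in HCC827 1 rose and 1 fell of 6, against 38.0%. CALR, the calreticulin chaperone of the loading complex, fell from 1121 ± 37.5 to 518 ± 5.40 FPKM in EBC-1 (SD, n = 3, log2 difference -1.11, adjusted p 4.12e-05) and from 405 ± 26.5 to 279 ± 15.2 FPKM in HCC827 (-0.53, adjusted p 0.00159). PDIA3, the disulfide isomerase bound to tapasin, fell in EBC-1 (-0.61, adjusted p 0.00261), as did UGGT1 (-0.25, adjusted p 0.0356), which lost its call with TPM rescaling. Of the aminopeptidases that trim peptides, ERAP2 was higher in EBC-1 (10.5 ± 1.11 to 19.8 ± 0.587 FPKM, 0.86, adjusted p 0.000390), where ERAP1 gave -0.25 (adjusted p 0.1001), and ERAP1 was higher in HCC827 (0.25, adjusted p 0.0271).

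Other class I and class I-like genes gave 0 higher and 3 lower of 5 tested in EBC-1, against 23.1% higher and 21.6% lower of all genes. Among the 3 lower were HLA-F (-0.30, adjusted p 0.0251) and HFE (-0.30, adjusted p 0.0290), both of which lost the call with TPM rescaling. In HCC827, 1 of 4 was higher, against 17.2% of all genes, and in PC-9, 0 of 5 were called by limma, against 2.09%. Of the other proteasome genes, PSME3 rose (0.29, adjusted p 0.0165) and PSME1 fell (-0.36, adjusted p 0.00714) in EBC-1 of 7 tested (3 higher and 1 lower with TPM rescaling), against 44.7% of all genes called. In the other lines 0 of 7 were called by limma, against 2.09% of all genes in PC-9 and 38.0% in HCC827. With the deposited FPKM the constitutive subunits PSMB5, PSMB6 and PSMB7 were called in no line.

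Among known regulators of class I and PD-L1, IFNGR1, the ligand-binding chain of the interferon-gamma receptor, rose in EBC-1 from 16.1 ± 2.76 to 38.3 ± 1.12 FPKM (SD, n = 3, log2 difference 1.21, adjusted p 0.000333) and in PC-9 from 19.8 ± 3.30 to 37.2 ± 4.04 (0.88, adjusted p 0.0331, 0.0603 with TPM rescaling and 0.0556 with quantile normalization). It gave 8.34 ± 1.20 and 7.98 ± 1.06 FPKM in HCC827, with no call. IRF1, an interferon-driven activator of class I and PSMB9, fell in EBC-1 from 8.70 ± 0.338 to 5.57 ± 0.178 FPKM (-0.56, adjusted p 0.000798), as did the receptor chain IFNGR2 (-0.49, adjusted p 0.00167) and the kinase JAK1 (-0.39, adjusted p 0.0260, not called with TPM rescaling or quantile normalization). PTPN2, a phosphatase that dampens JAK signalling, rose in EBC-1 (0.53, adjusted p 0.00937) and HCC827 (0.44, adjusted p 0.00416). NLRC5, the transactivator of class I genes, rose in HCC827 from 1.97 ± 0.166 to 3.22 ± 0.162 FPKM (0.51, adjusted p 0.00296) and in EBC-1 from 3.78 ± 0.379 to 4.86 ± 0.187 FPKM (0.30, adjusted p 0.0234), and NFKB1 rose in HCC827 (0.26, adjusted p 0.0116). SOCS3 rose in EBC-1 (0.44, adjusted p 0.0248) and fell in HCC827 (-0.60, adjusted p 0.00139), where RFXANK (-0.43, adjusted p 0.00453) and RELA (-0.26, adjusted p 0.0486, not called with TPM rescaling or quantile normalization) were lower too. In all, 8 regulators rose and 4 fell of 20 in EBC-1, 1 rose and 0 fell of 18 in PC-9, and 3 rose and 5 fell of 19 in HCC827, where TPM rescaling gave 6 and 2. The share called in HCC827 was close to the 38.0% of all genes, and 44.7% were called in EBC-1. The same rescaling gave 9 and 2 in EBC-1 and 0 in PC-9.

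Among genes that answer interferon, 3 rose and 1 fell of 9 tested in EBC-1 and 2 rose and 3 fell of 13 in HCC827, shares close to the 44.7% and 38.0% called over all genes. In PC-9 0 rose and 3 fell of 8, against 0.678% higher and 1.41% lower of all genes. IFI44L, IFI44 and IFIT3 rose in EBC-1 (log2 differences of 0.80, 0.79 and 0.59) while IFI6 fell (-0.48, adjusted p 0.0217). In HCC827 IFI44L (0.32) and IFIT3 (0.31) rose and OAS1 (-0.50), IFI27 (-0.46) and IFI6 (-0.42) fell, the last not called with quantile normalization (adjusted p 0.0714). BST2 (-1.08, adjusted p 0.0189), OAS3 (-0.64, adjusted p 0.0484) and OAS1 (-0.56, adjusted p 0.0331) fell in PC-9. Calls in that line depend on single libraries. Of all genes, 171 were called lower there, but only 12 without nc replicate 3, and 2, 8 and 8 without shSYK replicates 1, 2 and 3.

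Class II genes, which present peptides to CD4 T cells, mostly passed the filter in EBC-1 alone. Of the 9 on the list 8 were tested there, 3 of which (HLA-DPA1, HLA-DPB1 and HLA-DMB) reached the filter only through the shSYK libraries, and their calls are not counted. Of the other 5, HLA-DRA, HLA-DRB1, HLA-DMA and CD74 rose and HLA-DQB1 was not called (0.32, adjusted p 0.0898), against 23.1% of all genes called higher. HLA-DRA went from 33.9 ± 2.19 to 132 ± 8.06 FPKM (SD, n = 3, 1.93, adjusted p 2.0e-05). Given as levels only, HLA-DPA1 read 0.716 ± 0.0699 FPKM in nc and 6.14 ± 0.705 in shSYK, and HLA-DPB1 0.867 ± 0.270 and 5.72 ± 0.485. The class II transactivator CIITA gave 3.64 ± 0.173 and 4.34 ± 0.306 FPKM, which did not pass (adjusted p 0.0684). In the same libraries HLA-B and HLA-C had lower means in the knockdown. HLA-DRB1 fell in HCC827 (-0.62, adjusted p 0.0212), 1 of 2 class II genes tested, against 20.7% of all genes called lower. In PC-9, 0 of 1 was called by limma, against 2.09% of all genes.

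**Figure D4:**
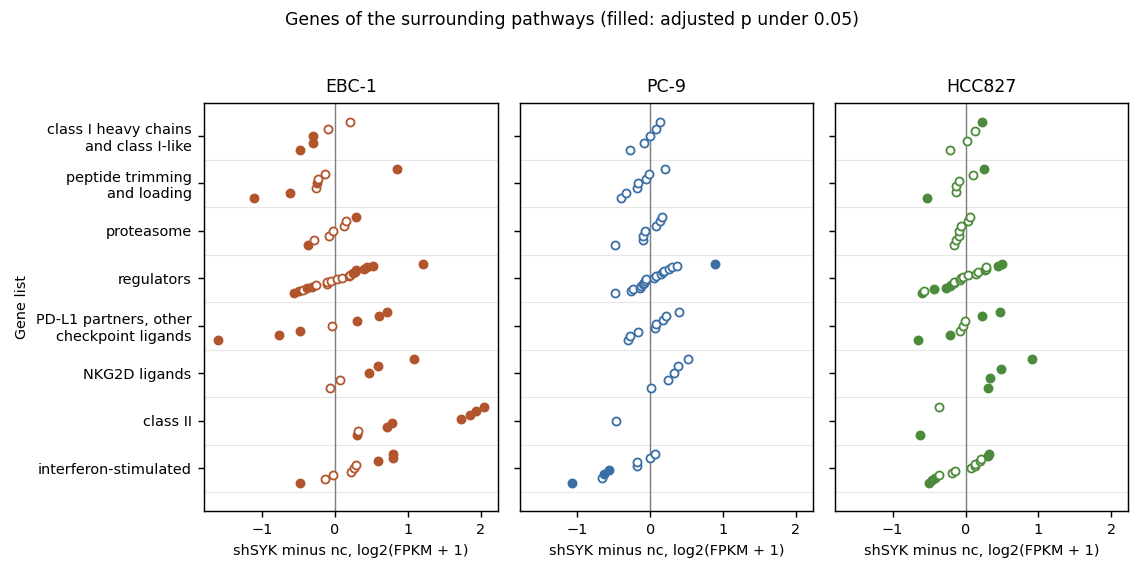
Difference of shSYK and nc on the log2(FPKM + 1) scale (horizontal axes) for each tested gene of 8 pathway lists (vertical axis) in the 3 cell lines, with genes past an adjusted p of 0.05 filled. The class II genes of EBC-1 lie farthest to the right, among them HLA-DPA1, HLA-DPB1 and HLA-DMB, which reached the filter only through the shSYK libraries. NKG2D ligands have no filled point on the left in any line.

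Ligands on the tumour cell that act beside PD-L1 changed in both directions. CD47, a signal against phagocytosis, rose in EBC-1 from 16.4 ± 2.09 to 27.5 ± 0.447 FPKM (SD, n = 3, 0.72, adjusted p 0.00110) and in HCC827 from 23.3 ± 1.48 to 32.8 ± 2.30 (0.47, adjusted p 0.00263). CMTM6, which keeps PD-L1 protein from being degraded, rose in EBC-1 (0.30, adjusted p 0.0151) and HCC827 (0.23, adjusted p 0.0206), and its relative CMTM4 rose in EBC-1 (0.61, adjusted p 0.00112). PVR and NECTIN2, ligands of TIGIT and DNAM-1, fell in EBC-1 (-0.76 and -0.48, adjusted p 0.000250 and 0.00594) and in HCC827 (-0.66 and -0.21, adjusted p 0.000190 and 0.0217), the last not called with TPM rescaling or quantile normalization. VSIR, which encodes VISTA, fell in EBC-1 from 8.51 ± 0.817 to 2.11 ± 0.0980 FPKM (-1.61, adjusted p 4.46e-05). That made 3 higher and 3 lower of 7 in EBC-1, against 23.1% higher and 21.6% lower of all genes. In PC-9, 0 of 8 were called by limma, against 2.09% of all genes. HCC827 gave 2 higher and 2 lower of 7, against 17.2% higher and 20.7% lower.

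Ligands of NKG2D, the receptor by which natural killer cells detect stressed cells, were called in 1 direction. In EBC-1 3 of 5 rose, against 23.1% of all genes, with ULBP3 at 1.08 (adjusted p 0.00667), ULBP2 at 0.59 (adjusted p 0.00516) and MICB at 0.46 (adjusted p 0.00532). In HCC827 4 of 4 rose, against 17.2% of all genes. MICB led, going from 5.49 ± 0.803 to 11.2 ± 0.443 FPKM (SD, n = 3, 0.91, adjusted p 0.000559), with ULBP3 (0.48, adjusted p 0.0244) and MICA (0.34, adjusted p 0.0276) after it. Of the 4, 2 lost their call in limma-voom on recovered reads. Reads per library were few for ULBP3 (12 to 71 in EBC-1 and 17 to 49 in HCC827) and for ULBP2 in HCC827 (13 to 27). In PC-9, 0 of 5 were called by limma, with a median log2 difference of 0.33 beside 0.01 over all genes, and 1 of 5 was called higher with TPM rescaling and with quantile normalization.

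Of the other protein-coding genes between 29722775 and 33318558 on chromosome 6, 5 were higher and 35 lower of 77 tested in HCC827 (median log2 difference -0.21), against 17.2% higher and 20.7% lower of all genes. HLA-B, TAP2, PSMB8 and PSMB9, 4 of the 7 genes described here that lie in the MHC, were called higher in HCC827. In EBC-1, 9 were higher and 35 lower of 88 (median -0.21), against 23.1% and 21.6% of all genes, and in PC-9, 0 were higher and 1 lower of 80 (median -0.07). TPM rescaling gave 5 higher and 28 lower in HCC827 and 12 higher and 28 lower in EBC-1. These counts include the class I-like and class II genes above. The EBC-1 counts of higher genes thus take in HLA-DPA1, HLA-DPB1 and HLA-DMB, which reached the filter only through the shSYK libraries. Counts without them were not computed.

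Marker genes of other cells also moved. In HCC827 the summed leukocyte markers went from 1.48 to 2.93 FPKM in the nc libraries to 3.69 to 5.92 FPKM in the shSYK libraries, of which CD79A made 1.18 ± 0.285 and 4.24 ± 0.938 (SD, n = 3, log2 difference 1.26, adjusted p 0.00105), and in each of these groups 3 of the 5 leukocyte markers had at most 3 reads in every library. Endothelial markers in PC-9 summed to 15.0 to 17.0 FPKM in nc and 6.62 to 7.91 FPKM in shSYK, mostly PECAM1 (-1.27, adjusted p 0.00492). The part of such cells in the class I values was not tested.

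How libraries are scaled changed the balance of calls over all genes. In EBC-1 the deposited FPKM gave 2876 genes higher and 2686 lower, and TPM rescaling gave 4019 and 1901, with the median of all genes moving from 0.01 to 0.12. Relative to that median, TAP1 and PSMB8 in EBC-1 stayed near 0, at log2 differences of 0.11 and 0.07 under TPM where the deposited values gave -0.02 and -0.06. TPM called 4 of the 9 genes higher (B2M, TAP2, TAPBP and CD274) and 1 lower (PSMB9). In HCC827 FPKM gave 2066 higher and 2488 lower and TPM 2482 and 1905, and 6 of the 9 were called higher and 0 lower under FPKM, TPM, quantile normalization and limma-voom. The fit of all 18 libraries called 4 of the 9 higher in HCC827, and 4 to 6 were called with 1 library left out, the lowest count without nc replicate 1.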

How the data were processed

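Total RNA was extracted, and the authors processed the reads of the 18 libraries into 1 FPKM table per cell line, deposited and used here as such. The submitters' processing notes name CASAVA and HISAT2, and list both common human builds. The gene coordinates overlapped GENCODE v44 (GRCh38) for 57511 of 57532 shared identifiers. The counting tool, its use of strand and its handling of reads mapping to several places are not given in the sources used here.

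The log2(FPKM + 1) values were fitted in limma 3.58.1 (R 4.3.3, variance trend), within each cell line over genes with a mean of 1 FPKM or more, and over all 18 libraries for differences between cell lines, at a Benjamini-Hochberg adjusted p of 0.05. Ratios were compared by exact permutation tests in Python 3.11.15 with scipy 1.17.1. Whole reads were recovered from FPKM and gene length, and read numbers cover counting error only. Library totals of 7920099 to 15729103 reads limit the precision of low genes. The fit was tested on simulated data. Members and lists were chosen with earlier results of these data known. All 9 members are named, with up to 3 called genes of largest change per list, direction and line, the 3 genes most alike to CD274, HLA-B and TAP1, and SYK. A few genes outside this rule, such as the proteasome subunits in ratios, further class II genes, CIITA, PTPRC, and ERAP1, IFNGR1 and NLRC5 in further lines, were named after their values were seen. One gene that the rule names is not reported here. The labels' replicate numbers did not pair the libraries, since deviations of libraries with the same number correlated between -0.219 and 0.325.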

Additional observations from a re-analysis of the deposited data

Results flagged for a closer look

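The effect of the knockdown on 3 genes differed between cell lines in a test of the difference itself, from limma over the 18 libraries with adjustment over 12672 genes. For HLA-B the effect in EBC-1 less that in HCC827 was -0.90 on the log2 scale (adjusted p 0.00302), with an effect of 0.66 in HCC827 that was called and one of -0.24 in EBC-1 that was not. For PSMB9 the same difference was -1.08 (adjusted p 0.000532), and the effect in PC-9 less that in HCC827 was -0.90 (adjusted p 0.00526). For TAP2 the effect in EBC-1 exceeded that in PC-9 by 0.44 (adjusted p 0.0256, 0.00301 to 0.0689 over the alternatives), and this call was lost without any one of 4 libraries. The fall of SYK itself was smaller in EBC-1 than in HCC827 by 0.49 in the same fit (adjusted p 0.0278). That difference was 0.44 for EBC-1 and PC-9 (adjusted p 0.0516) and 0.06 for PC-9 and HCC827 (adjusted p 0.895). The part of knockdown depth in the differences between lines was not tested.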

How the results depend on the processing

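In EBC-1, 2 of the 9 genes were called higher, against 1 with a filter at 5 FPKM (which removes CD274), 5 with quantile normalization and 4 with TPM rescaling, and 2 were called lower, against 1 with the fit of all 18 libraries, no filter, quantile normalization or TPM rescaling, and 1 to 3 with 1 library left out. In PC-9, 0 were called higher, against 1 (CD274) with the fit of all 18 libraries, and 0 lower, against 0 to 1 with 1 library left out. For the effect in EBC-1 less PC-9, 1 was called higher, against 0 with a filter at 5 FPKM, 2 with quantile normalization or TPM rescaling and 0 to 2 with 1 library left out, where calls lower ran from 0 to 2. For EBC-1 less HCC827, 0 were called higher, against 1 with limma-voom on recovered reads or TPM rescaling and 0 to 1 with 1 library left out, and 2 were called lower, against 3 with limma-voom or quantile normalization and 2 to 3 with 1 library left out. For PC-9 less HCC827, 1 was called lower, against 3 with quantile normalization or TPM rescaling and 1 to 2 with 1 library left out. The cause was not tested.

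Directions turned mostly for values near 0, but HLA-C in EBC-1 was not among these. It was called lower with the deposited values (-0.31, limma adjusted p 0.0265) and passed as higher with quantile normalization (0.18, limma adjusted p 0.0452). HLA-B in EBC-1 went from -0.24 to 0.0028 with quantile normalization. That setting gave 0.020 for TAP1 in EBC-1, where TPM rescaling gave 0.11 for TAP1 and 0.071 for PSMB8. In HCC827, TAPBP was 0.055 with TPM rescaling, 0.080 with quantile normalization and 0.016 with limma-voom, and in PC-9, TAP2 was -0.014 with TPM rescaling. With 1 library left out, TAP1 ran from -0.11 to 0.060 and PSMB8 from -0.16 to 0.032 in EBC-1, HLA-C from -0.17 to 0.17 and TAP2 from -0.047 to 0.076 in PC-9, TAPBP from -0.061 to 0.032 in HCC827, and PSMB10 over PSMB7 in HCC827 from -0.034 to 0.12 on the log2 scale. The calls of CD274, TAP2 and PSMB9 in EBC-1 and of HLA-B and PSMB9 in HCC827 held in every alternative that kept the gene.

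The replicate number as a block lowered the calls lower in EBC-1 from 2 to 1 (HLA-C, adjusted p 0.0617) and changed no other count of these genes. Such pairing has no support in the labels. The planned quasi-likelihood count test and TMM scaling were not run, since the deposited values are FPKM, and limma-voom with median-ratio size factors was chosen in their place after seeing the data. Low read numbers limit CD274 in PC-9, with 18 to 37 reads in the controls.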
